A study of Mus musculus with 2 samples.

Results

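The Ly49 receptor family was followed here through its 7 genes Klra1, Klra3, Klra4, Klra6, Klra7, Klra8 and Klra9, all of which were among the 32285 genes of both single-cell count matrices. The genes were taken by name. They were then described in natural killer (NK) cells and in T cells of mouse liver tumors.

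Ly49 receptors are lectin-like receptors with which mouse NK cells read major histocompatibility complex (MHC) class I molecules on other cells. Inhibitory members (Klra1 or Ly49A, Klra3 or Ly49C, Klra6 or Ly49F, Klra7 or Ly49G, Klra9 or Ly49I) carry a tyrosine motif in the cytoplasmic tail that recruits phosphatases, whereas activating members (Klra4 or Ly49D, Klra8 or Ly49H) lack it and signal through the adaptor Tyrobp (DAP12). Each NK cell is known to use its own small selection of these genes, and some T cells use inhibitory members too.

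A sequence difference between both classes lies at the start of the coding region. The first 36 coding bases of each gene are given here from the GENCODE M21 annotation of mm10, with codon 8 (coding bases 22 to 24) in capitals. That codon read as tyrosine in the inhibitory genes and as phenylalanine in Klra4 and Klra8, and the inhibitory motif pattern around it was found in the 5 inhibitory genes and in neither activating gene.
Klra4: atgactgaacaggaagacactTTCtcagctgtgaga
Klra8: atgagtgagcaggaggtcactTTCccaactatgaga
Klra1: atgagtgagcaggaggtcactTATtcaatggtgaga
Klra3: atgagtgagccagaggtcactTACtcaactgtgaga
Klra6: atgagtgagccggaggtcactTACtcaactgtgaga
Klra7: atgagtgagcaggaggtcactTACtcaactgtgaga
Klra9: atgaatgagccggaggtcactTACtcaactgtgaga

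All 7 genes lie on the minus strand of mouse chromosome 6 within 374 kb (chr6:130013033-130386874, mm10). In order of position they are Klra6 (chr6:130013033-130026954), Klra4 (chr6:130043731-130067271), Klra8 (chr6:130115226-130129898), Klra9 (chr6:130178675-130193112), Klra7 (chr6:130218605-130233322), Klra3 (chr6:130323289-130337574) and Klra1 (chr6:130363917-130386874). The genes are close copies of each other, and coding identity over the 21 pairs ran from 77.7% to 95.9% with a median of 82.8%. The libraries were read from the 3′ end, where the last 400 transcript bases were 56.8% to 98.2% identical. Klra3 and Klra9 were the closest pair, at 95.9% over the coding region and 98.2% over the transcript end, and were the single pair to share any stretch of 91 bases there. The division of reads between Klra3 and Klra9 is therefore less certain than that between the other members.

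The study set 2 treatments side by side, with 1 library each. Male wild-type C57BL/6J mice aged 6 to 8 weeks received MYC and Trp53-targeting plasmids with Sleeping Beauty transposase by hydrodynamic tail vein injection, and liver tumors arose. Lenvatinib, an inhibitor of several receptor tyrosine kinases, was given at 30 mg/kg from 12 days after injection for 25 days, and both groups were therefore animals with lenvatinib-resistant tumors. The first group then stayed on lenvatinib at 30 mg/kg and the other received lenvatinib with 100 mg/kg palbociclib, an inhibitor of CDK4 and CDK6. CD45-positive cells from the tumors were sorted and each group gave 1 droplet library, whose number of mice is not named in the sources used here. The lenvatinib library held 14509 barcodes and 98107503 unique molecular identifiers (UMIs, each counting 1 captured transcript), and the combination library held 11989 barcodes and 93583402 UMIs. Of these, 14201 and 11613 cells had at most 6000 genes and at most 25% mitochondrial UMIs and were used, with median depths of 5541 and 5754 UMIs. The libraries had 49 barcodes in common. With 1 library a condition there is no replicate error, no test was made, and treatment and library cannot be told apart. Intervals below are 95% intervals that cover counting error only.

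NK cells were cells with an Ncr1 UMI and no Cd3e UMI, and numbered 2851 in the lenvatinib library and 1264 in the combination library. The 7 NK markers summed to 7484 and 6342 CPM (a gene's UMIs as a part of all UMIs of the group, on the usual CPM scale) in them, while the CD8 T markers, at 102 and 73.8 CPM, lay at the level of B cells (91.8 and 75.6 CPM). Cells with a Cd3e UMI were divided by Cd8b1 (a CD8 chain; 3094 and 2418 cells), Trdc (the delta T cell receptor constant gene; 592 and 328 cells) and Cd4 (577 and 527 cells), each without the other 2 genes. Another 2156 and 1577 cells had Cd3e with none of the 3 and are called Cd3e-only cells. These held Trac, the alpha T cell receptor constant gene, at 411 and 388 CPM, against 30.2 and 27.9 CPM in NK cells, and Cd8a at 89.6 and 59.5 CPM, against 375 and 439 CPM in Cd8b1 cells. Ikzf2, which encodes Helios, was at 656 and 236 CPM in them. A gene without a UMI in a cell may still be expressed there, so the Cd3e-only group can hold cells of the other groups.

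Droplets also catch free RNA, which was read from cells that should lack Ly49 genes. At 2000 UMIs per cell, 11.4% (8.82 to 14.4) of 536 B cells in the lenvatinib library had a UMI of any of the 7 genes, against 2.12% (1.22 to 3.42) of 754 B cells in the combination library. Neutrophils gave 12.8% and 2.31%, and mononuclear myeloid cells 9.84% and 2.12%. The Ly49 background was thus higher in the lenvatinib library in each of these 3 cell types. The level of each member was therefore set beside the highest of the 3 in its own library, and 7 of 7 genes lay above it in NK cells of both libraries. The 52 Klra4 UMIs of combination B cells came from 7 of 795 cells. Whether the background groups held free RNA alone was not tested.

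In NK cells the activating genes were the most abundant members. Klra8 stood at 403 CPM (395 to 411) in the lenvatinib library and 283 CPM (274 to 293) in the combination library, and Klra4 at 391 (383 to 399) and 282 CPM (273 to 292). These 2 genes could not be told apart in level in either library. UMIs at the 3′ end count a transcript once whatever its length, so levels of different genes are compared without division by length.

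The inhibitory genes spread over a wider range. Klra7 followed at 352 CPM (345 to 360.1) under lenvatinib and 166 CPM (159 to 174) under the combination. Klra9 came next at 195 and 148 CPM, then Klra3 at 153 and 75.3 CPM and Klra1 at 124 and 60.8 CPM. Klra6 was the rarest at 12.6 CPM (11.2 to 14.2) and 8.66 CPM (7.03 to 10.6). The order of the 7 genes was the same in both libraries, and from Klra4 down neighbors in it had intervals that did not overlap.

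**Figure D1:**
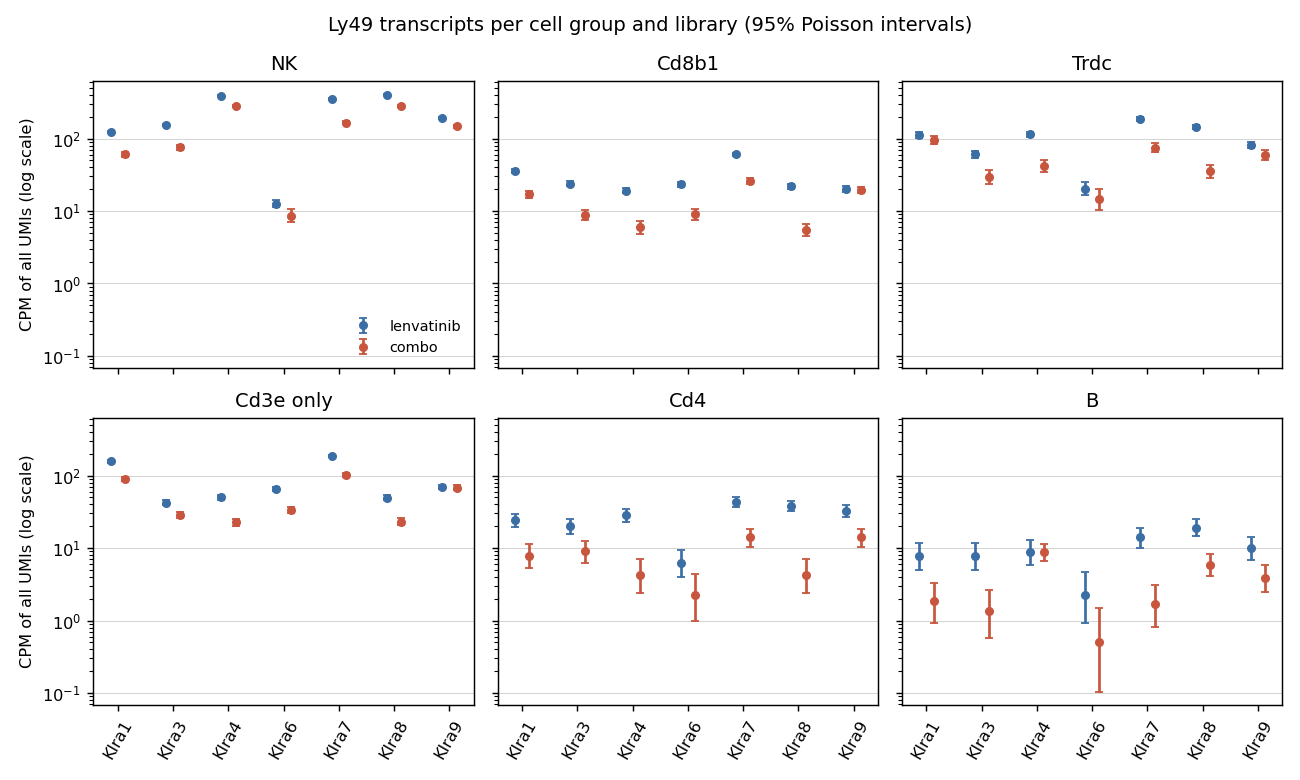
Levels of the 7 Ly49 genes as CPM of all UMIs on a log axis, in 6 cell groups, for the lenvatinib library (blue) and the combination library (red), with 95% Poisson intervals as bars. NK cells hold the highest Klra4, Klra8, Klra3, Klra7 and Klra9, Klra6 is higher in Cd3e-only cells than in NK cells, and B cells are a background group.

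All 7 genes were lower in NK cells of the combination library as counted, but the inhibitory genes Klra1, Klra3 and Klra7 by more than the rest. Their ratios of combination to lenvatinib were 0.489 (range 0.437 to 0.547), 0.492 (0.445 to 0.545) and 0.471 (0.441 to 0.504), where the range sets the interval ends of both libraries against each other. Klra4 at 0.722 (0.683 to 0.763), Klra8 at 0.703 (0.665 to 0.743) and Klra9 at 0.758 (0.701 to 0.819) were closer to 1, and their ranges lay apart from those of Klra1, Klra3 and Klra7. The Klra6 ratio of 0.687 (0.497 to 0.944) overlapped both sets, and its direction turned when the highest background group of each library was taken off, which left 7.58 and 8.16 CPM. The other 6 genes stayed lower with this step. Klra9 thus went with the activating genes and not with its nearest copy Klra3.

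Set against all genes, 3 of the 7 members were at least 1.5-fold lower and 0 at least 1.5-fold higher in NK cells of the combination library. Of the 7478 genes with a mean of at least 10 CPM in NK cells, 11.3% were 1.5-fold lower and 4.41% 1.5-fold higher. The median log2 ratio was −0.54 over the members and −0.14 over all these genes. Neutrophil markers moved the other way: their 4 genes, all detected, summed to 1425 CPM in lenvatinib NK cells and 23018 CPM in combination NK cells, and to 2773 and 41475 CPM in B cells. Their part in the Ly49 values, or in those of other genes, was not tested.

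The partners of the receptors lay nearer to all genes than the members did. Their median log2 ratios were −0.16 for the adaptor and signaling genes and −0.04 for the class I ligand genes, against −0.14 over all genes. Of the 8 adaptor and signaling genes only Zap70, a T cell receptor kinase, was past 1.5-fold, and it was lower. Tyrobp, the adaptor that Klra4 and Klra8 signal through, was at 1747 and 1879 CPM, and Hcst (DAP10) at 401 and 365 CPM. The class I ligand genes H2-K1 (3169 and 3079.5 CPM), H2-D1 (1367 and 1795 CPM) and B2m (2394 and 2009 CPM) were all within 1.5-fold. Among 10 other receptor genes, mostly of the same NK gene complex, Klri2 and Klrg1 were 1.5-fold lower and none was 1.5-fold higher, 9 of the 10 passing the level filter.

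Counting cells in place of transcripts gave a like picture. After each cell was thinned to 2000 UMIs, 74.3% (72.6 to 75.9) of 2678 NK cells had a UMI of at least 1 member under lenvatinib and 59.1% (56.3 to 61.9) of 1250 under the combination. Thinning left out 173 and 14 NK cells that were too shallow, and the unthinned shares were 81.9% and 69.0% at median depths of 6947 and 7242 UMIs. Both shares were far above the 9.84% to 12.8% and 2.12% to 2.31% of the background groups.

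Detected genes per NK cell followed the same order as the levels only in part. Klra7 was found in the largest share of cells under lenvatinib, 37.5% (35.7 to 39.4), and in 23.1% (20.8 to 25.6) under the combination. Klra8 was found in 33.1% (31.3 to 34.9) and 27.8% (25.3 to 30.3), and Klra4 in 31.4% (29.6 to 33.2) and 27.6% (25.1 to 30.2). Klra7 had fewer UMIs per positive thinned cell, 1.84 and 1.63, against 2.65 and 2.61 for Klra4 and 2.59 and 2.39 for Klra8. Klra9 was found in 22.8% and 19.7% of NK cells, Klra3 in 17.7% and 11.7%, Klra1 in 12.8% and 8.08%, and Klra6 in 2.17% and 1.6%.

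**Figure D2:**
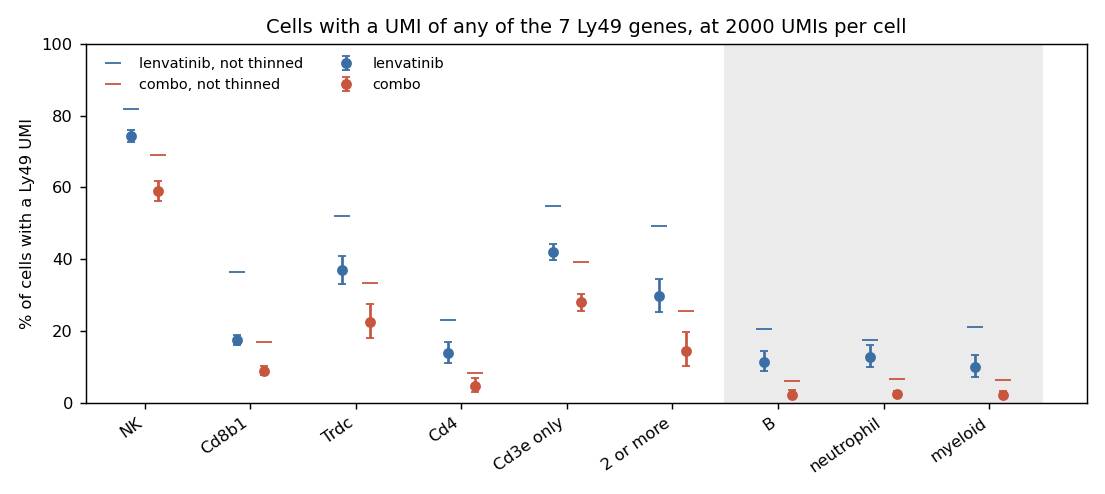
Share of cells with a UMI of any of the 7 Ly49 genes after thinning to 2000 UMIs (points, 95% Clopper-Pearson intervals) and before thinning (dashes), by cell group and library. NK cells stand highest at 74.3% and 59.1%, and the shaded groups, which should lack Ly49, sit between 9.84% and 12.8% in the lenvatinib library and between 2.12% and 2.31% in the combination library.

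Within NK cells the members were read against the integrins Itga2 (CD49b, typical of conventional NK cells) and Itga1 (CD49a, typical of tissue-resident NK cells and type 1 innate lymphoid cells). Cells with Itga2 alone had a Ly49 UMI in 84.7% (81.7 to 87.4) of cases under lenvatinib and 81.6% (76.1 to 86.3) under the combination. Cells with Itga1 alone had one in 66.6% (62.2 to 70.7) and 36.2% (83 of 229 cells, with an upper bound of 42.8%). The libraries could not be told apart in the Itga2 cells by this share, and lay far apart in the Itga1 cells.

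Single genes split further within these cells. In Itga2 cells Klra8 was at 509.9 and 486 CPM (ratio 0.954, range 0.864 to 1.05) and Klra9 at 208 and 195 CPM (0.937, 0.801 to 1.09), and neither differed beyond counting error. Klra4 was at 535 and 477 CPM (0.892, 0.808 to 0.984). Klra7 (403 and 256 CPM), Klra1 (149 and 82.5 CPM) and Klra3 (169.5 and 95.2 CPM) were lower in the combination library also here, with ratios of 0.636, 0.553 and 0.562. Summed, the activating genes were at 0.922 (0.860 to 0.989) and the inhibitory genes at 0.679 (0.626 to 0.735) of their lenvatinib level.

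The Itga1 cells showed the opposite extreme. Klra1 was at 123 CPM under lenvatinib and 27.6 CPM under the combination (ratio 0.224, range 0.161 to 0.307), and Klra7 at 372 and 117 CPM (0.315, 0.267 to 0.370). Klra4 was at 256 and 126 CPM (0.493) and Klra8 at 319 and 182 CPM (0.570). The Itga1 cells made up 17.9% and 18.1% of the NK cells and the Itga2 cells 23.3% and 19.0%, while 51.8% and 60.6% had neither gene and could not be placed.

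Most Ly49-positive NK cells held more than 1 member. At 2000 UMIs, 49.7% (47.8 to 51.7) of lenvatinib NK cells and 38.4% (35.7 to 41.2) of combination NK cells had at least 2 different Ly49 genes, and 7.36% and 4.0% had at least 4. The mean number was 1.57 and 1.20. Counted among positive cells alone, the share with at least 2 members was 67.0% (64.9 to 69.0) and 65.0% (61.4 to 68.4), intervals that overlap.

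**Figure D3:**
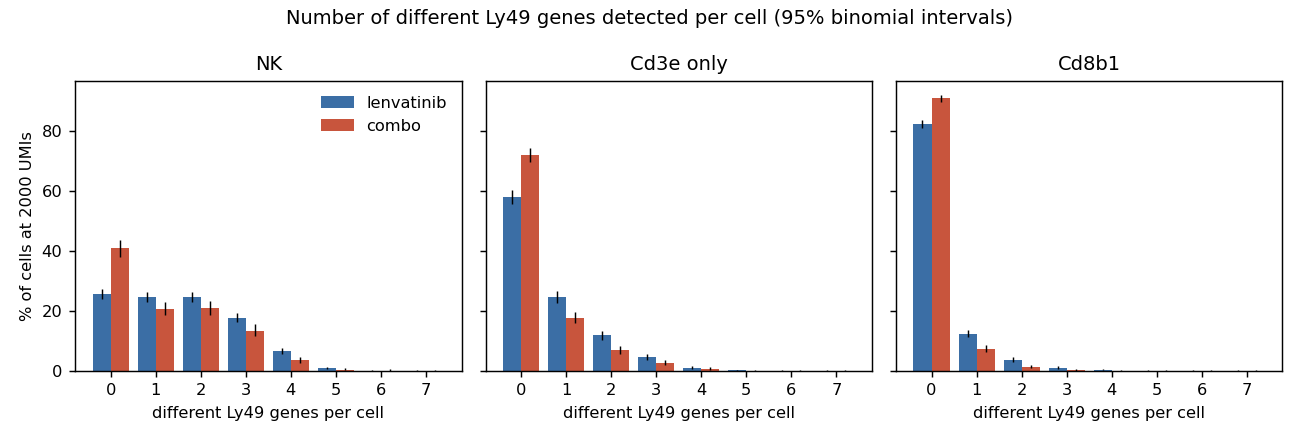
Number of different Ly49 genes per cell after thinning to 2000 UMIs, as a share of cells with 95% binomial intervals, in NK, Cd3e-only and Cd8b1 cells of both libraries. In NK cells 25.7% and 40.9% had none, and the bars for 1, 2 and 3 genes fall off slowly, whereas in Cd8b1 cells most of the positive cells had 1.

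The pair seen together most was the activating one. Among NK cells with Klra4, 52.5% (49.1 to 55.9) also had Klra8 under lenvatinib, against 24.3% (22.3 to 26.3) of those without Klra4. Under the combination the shares were 49.9% (44.5 to 55.3) and 19.3% (16.8 to 22.1). Each of the 21 pairs can be read from either gene. Read both ways, 9 pairs were seen together more often under lenvatinib and 12 under the combination, with intervals that did not overlap, a further 0 and 1 were so in a single reading, and 0 were seen less often. These shares are descriptive, since pairs share cells and some NK cells express no Ly49.

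Restricting to Itga2 cells left 2 pairs above in both readings in each library, and they were the same pairs. Klra8 was in 54.5% and 54.9% of Itga2 cells with Klra4, against 31.5% and 35.8% without it. Klra4 was in 54.4% and 76.2% of those with Klra1, against 37.7% and 39.4%. In a single reading, Klra8 was in 60.3% (46.6 to 73.0) of combination cells with Klra9 and 38.7% (31.5 to 46.2) of those without it. Under lenvatinib, Klra9 was in 13.6% (7.63 to 21.8) of Itga2 cells with Klra1 and in 25.7% (22.1 to 29.6) of those without it, but the same pair read from Klra9 overlapped, with Klra1 in 8.97% (4.99 to 14.6) and 17.8% (14.6 to 21.5).

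The make-up of the family differed between NK cells and Cd3e-only cells. Activating genes gave 48.7% (48.2 to 49.2) and 55.2% (54.3 to 56.1) of the Ly49 UMIs of NK cells, but 16.1% (15.3 to 16.9) and 12.5% (11.5 to 13.5) of those of Cd3e-only cells. In Trdc cells they gave 36.0% and 22.1%, in Cd4 cells 34.5% and 15.2%, and in Cd8b1 cells 20.1% and 12.5%. A further 390 and 236 Cd3e-positive cells held 2 or more of Cd8b1, Trdc and Cd4. In these the activating share was 41.2% and 41.7%. In B cells it was 40.0% and 61.3%. Neutrophils gave 46.8% and 42.3% and mononuclear myeloid cells 46.4% and 40.0%. The background groups of the combination library differed among themselves, with Klra4 at 36.6% (28.7 to 45.1) of the Ly49 UMIs of B cells and 14.7% (9.58 to 21.3) of those of neutrophils. The activating share of Cd3e-only cells lay below that of all 3 background groups in each library.

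**Figure D4:**
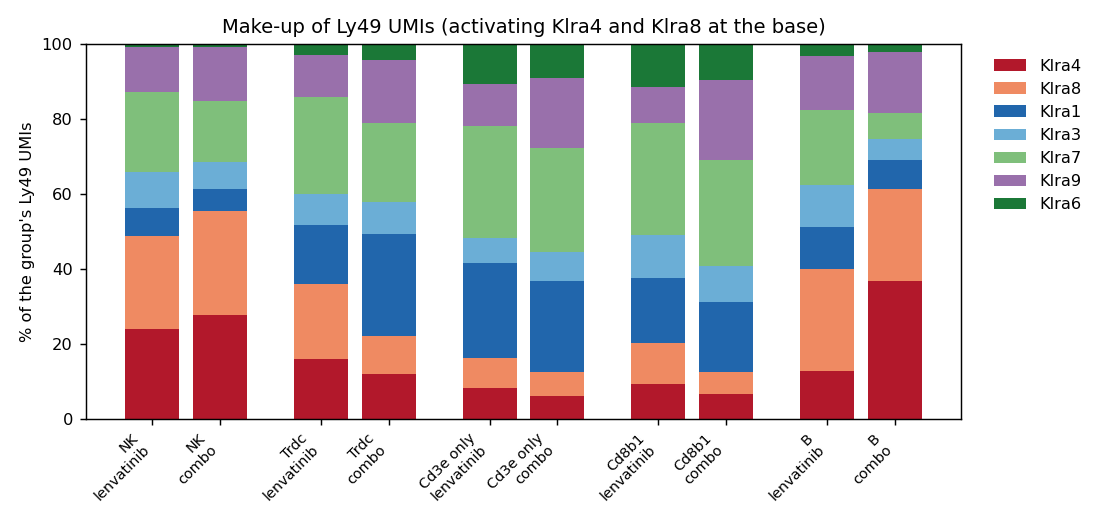
Make-up of the Ly49 UMIs of 5 cell groups in each library, as percent per gene, with the activating genes Klra4 and Klra8 stacked at the base. The activating share falls from 48.7% and 55.2% in NK cells to 16.1% and 12.5% in Cd3e-only cells, where Klra6 takes 10.6% and 9.04% against under 1% in NK cells.

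Klra6 had a larger place among the Ly49 genes of Cd3e-only and Cd8b1 cells than of NK cells. It gave 0.773% (0.686 to 0.868) and 0.846% (0.687 to 1.03) of the Ly49 UMIs of NK cells, 10.6% (9.94 to 11.2) and 9.04% (8.23 to 9.90) in Cd3e-only cells, and 11.4% (10.6 to 12.3) and 9.75% (8.35 to 11.3) in Cd8b1 cells. In Trdc cells it gave 2.84% and 4.17% and in Cd4 cells 3.22% and 4.04%. The 3 background groups ran from 3.26% to 3.45% under lenvatinib and from 2.07% to 3.21% under the combination. In Cd4 cells its level was 6.20 and 2.25 CPM, below the NK level of 12.6 and 8.66 CPM. It was higher in Cd3e-only cells, at 65.5 CPM (61.3 to 69.9) and 33.2 CPM (30.1 to 36.5). Klra1 likewise stood at 157 and 89.3 CPM in Cd3e-only cells, above its NK level in both libraries. Klra7 was at 185 and 102 CPM there, below its NK level.

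In Cd3e-only cells 41.9% (39.7 to 44.2) of 1913 cells had a Ly49 UMI under lenvatinib and 27.9% (25.6 to 30.2) of 1504 under the combination, at 2000 UMIs (54.7% and 39.1% unthinned, at median depths of 5519 and 6362 UMIs). Thinning left out 243 and 73 of them. In 7 of 7 genes the level was above the background of the combination library, and in 6 of 7 above that of the lenvatinib library. The exception, Klra8, was at 49.6 CPM against a neutrophil background of 37.7 CPM with an upper bound of 46.3 CPM, just above its own lower bound of 46.0 CPM. With the highest background group taken off, Klra8 in Cd3e-only cells was at 11.9 and 17.3 CPM, so the direction between the libraries turned.

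Between the libraries, 5 of the 7 genes were at least 1.5-fold lower in Cd3e-only cells of the combination library and 0 higher, where 16.4% and 4.93% of 7604 genes were. The ratios were 0.569 for Klra1, 0.506 for Klra6, 0.548 for Klra7, 0.450 for Klra4 and 0.468 for Klra8. Klra9, at 69.5 CPM (65.2 to 74.0) and 68.3 CPM (63.8 to 73.0), did not differ beyond counting error as counted. With the highest background group taken off it was at 49.4 and 64.4 CPM, higher in the combination library. The neutrophil markers summed to 5018 and 32411 CPM in these cells, and their part in the ratios was not tested.

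Pairs were read in the same way in Cd3e-only cells. Klra6 was in 19.3% (15.0 to 24.3) of cells with Klra1 and 6.49% (5.34 to 7.80) of cells without it under lenvatinib, and in 22.3% (15.7 to 30.1) and 3.37% (2.48 to 4.47) under the combination. Klra7 was in 43.1% and 36.0% of the cells with Klra1, against 15.7% and 9.16%, and in 46.3% and 40.3% of the cells with Klra6, against 17.5% and 10.1%. The inhibitory genes Klra1, Klra6 and Klra7 were thus found together in both libraries. The activating pair was linked too: Klra8 was in 37.5% (26.9 to 49.0) and 33.3% (18.0 to 51.8) of the 80 and 33 cells with Klra4, and in 3.6% and 1.5% of the rest. Klra3 with Klra8, Klra8 with Klra9 and Klra7 with Klra9 were also apart in both libraries. Of the 21 pairs 11 were more frequent together in both readings in each library and 0 less. In NK cells that count was 9 under lenvatinib and 12 under the combination. Cd3e-only cells were not restricted to a subset as NK cells were to Itga2 cells, so the groups are not ranked by their pairs.

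**Figure D5:**
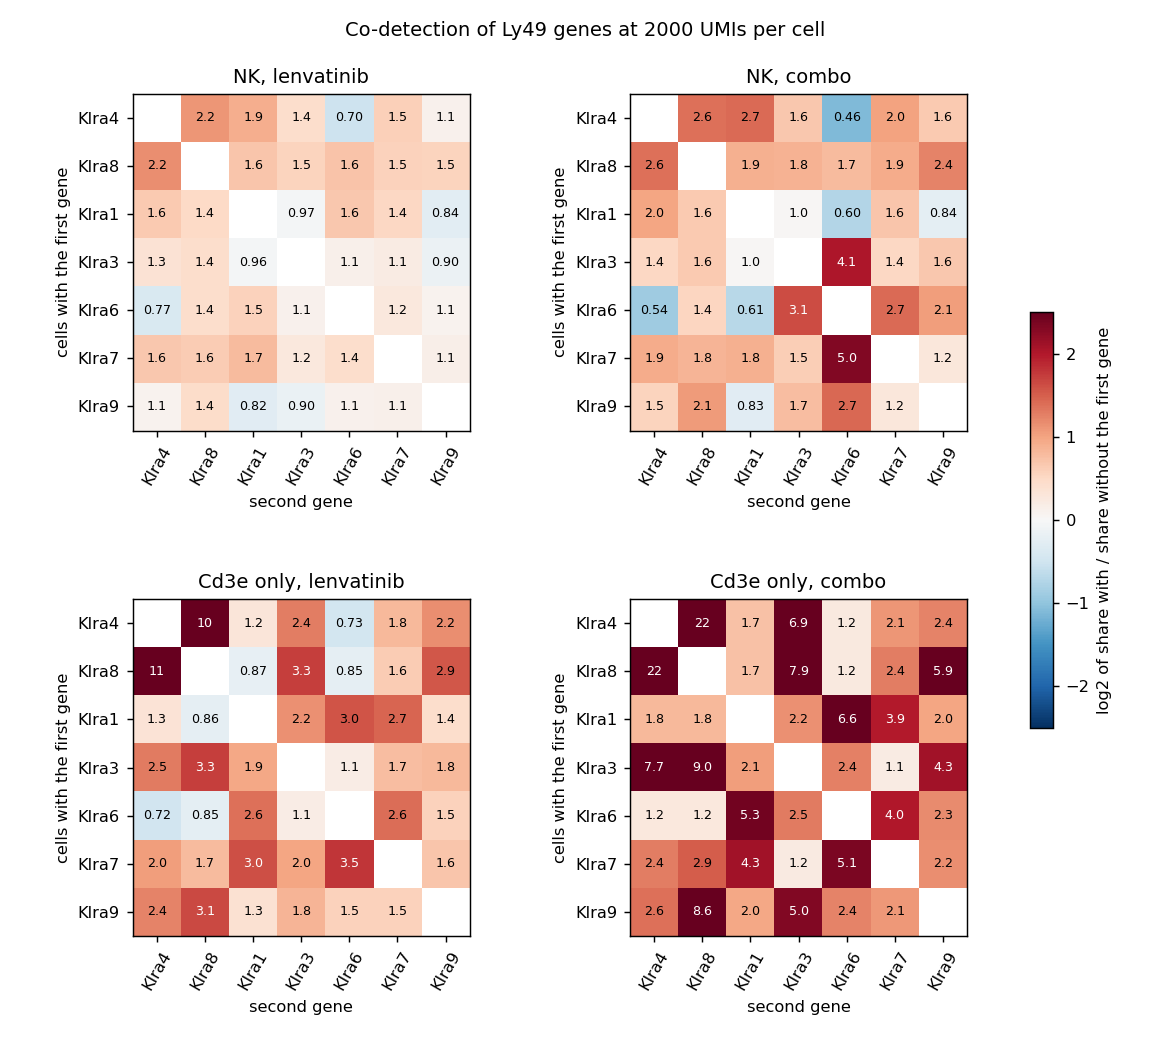
Ratio of the share of cells with the second gene (columns) among cells with and without the first gene (rows), at 2000 UMIs, in NK cells and Cd3e-only cells of both libraries; the color is the log2 of the printed ratio. Klra4 with Klra8 stands out in all 4 panels, and Klra1 with Klra6 and Klra7 in Cd3e-only cells; ratios of Klra6 in NK cells rest on few cells.

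Trdc cells held UMIs of activating and inhibitory genes. A Ly49 UMI was found in 36.9% (33.0 to 41.0) of 580 cells under lenvatinib and 22.5% (18.0 to 27.4) of 325 under the combination (unthinned 51.9% and 33.2%, at median depths of 6868 and 6628 UMIs). Klra7 led under lenvatinib at 185 CPM (173 to 197) and was at 74.6 CPM (64.4 to 85.9) under the combination, whereas Klra1 stood at 112 (103 to 122) and 96.7 CPM (85.0 to 109) and did not differ beyond counting error. Klra8 was at 144 and 35.7 CPM (ratio 0.248, range 0.185 to 0.328) and Klra4 at 114 and 42.3 CPM (0.371, 0.280 to 0.487). The range of Klra8 met that of Klra7 (0.404, 0.326 to 0.497), and that of Klra4 overlapped those of Klra7 and Klra3 (0.487, 0.343 to 0.686). Among Trdc cells without an Ncr1 UMI the log2 ratios moved from −1.43 to −3.87 for Klra4, from −2.01 to −2.68 for Klra8, from −1.04 to −2.27 for Klra3 and from −1.31 to −0.55 for Klra7.

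All 7 genes lay above the background in Trdc cells of each library. Of them, 4 (Klra3, Klra4, Klra7 and Klra8) were at least 1.5-fold lower in the combination library and 0 were higher, where 16.2% and 4.53% of 7526 genes were. The NK markers, of which all 7 were detected, summed to 2812 and 2294 CPM in Trdc cells, against 1001 and 1282 CPM in Cd8b1 cells. The same sum was 3721 and 3094 CPM in neutrophils and 2791 and 2805 CPM in mononuclear myeloid cells. Both of these groups lack Ncr1 by definition, so the sum does not mark NK cells alone. Trdc itself was found in NK cells at 50.5 and 41.2 CPM.

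In Cd8b1 cells only some of the family rose above the background. Klra7 was the most abundant at 60.9 CPM (58.0 to 64.0) and 26.2 CPM (23.8 to 28.7), with Klra1 at 35.3 and 17.1 CPM, Klra3 at 23.8 and 8.85 CPM and Klra6 at 23.3 and 8.97 CPM, each above the background of its library. Klra4 (19.1 and 5.96 CPM) and Klra8 (22.0 and 5.5 CPM) were at or below it, at 30.6 and 37.7 CPM in lenvatinib neutrophils and 8.73 and 5.88 CPM in combination B cells. Against the other background groups Klra4 was higher, at 8.79 and 12 CPM in B and myeloid cells under lenvatinib and 1.97 and 2.49 CPM in neutrophils and myeloid cells under the combination. The Klra4 UMIs of combination B cells came from 7 of 795 cells, so activating Ly49 in Cd8b1 cells could not be placed above or at the background. Klra9 had an interval of 18.3 to 21.8 CPM under lenvatinib, level with the neutrophil background of 20.1 CPM, and stood at 19.5 CPM (17.5 to 21.6) under the combination, above the background.

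In Cd8b1 cells 6 of the 7 members were at least 1.5-fold lower in the combination library and 0 higher, against 10.7% and 3.67% of 7415 genes. Klra4 and Klra8 among them did not exceed the highest background group, and the others were Klra1 (ratio 0.484, range 0.404 to 0.579), Klra3 (0.372, 0.292 to 0.472), Klra6 (0.385, 0.302 to 0.488) and Klra7 (0.429, 0.372 to 0.494). Any Ly49 UMI was found in 17.5% (16.1 to 18.9) of 3013 cells and 8.89% (7.78 to 10.1) of 2385 cells, against at most 12.8% and 2.31% in the background groups. Unthinned the shares were 36.3% and 17.0%, at median depths of 7218 and 5877 UMIs. The background of the 2 libraries differed in the same direction as these levels, and the summed difference depended on it. The log2 ratio of the 7 genes summed was −1.15 as counted and −0.98 with the B cell level of each library taken off. With the highest background group taken off (neutrophils at 146 CPM, then B cells at 23.8 CPM) it turned to 0.21, at 58.7 and 68.1 CPM. Klra1, Klra3 and Klra6 stayed lower with that step, at log2 ratios of −0.78, −0.80 and −1.11. Klra7 was at −0.15, with 26.6 and 23.9 CPM left. The neutrophil level taken off for Klra7 under lenvatinib was 34.3 CPM (27.3 to 42.6). That interval is wider than the difference left, so the direction of Klra7 was not settled.

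Genes of the regulatory and virtual memory CD8 list and other NK receptors that passed 1.5-fold in T cells were mostly lower in the combination library. In Cd8b1 cells 5 of 9 genes of the regulatory and virtual memory CD8 list were at least 1.5-fold lower under the combination, among them Ikzf2 (145 and 78.4 CPM) and Il2rb, the interleukin-15 receptor beta chain (579 and 334 CPM), and Il7r was higher. In Cd3e-only cells 4 of the 9 were lower and 0 higher, again with Ikzf2 and Il2rb. Among the other NK receptors that passed the level filter, 2 of 8 were lower in Cd8b1 cells (Klri2 and Ncr1). In Cd3e-only cells 2 of 8 were lower (Klrc2 and Klri2), and in Trdc cells 3 of 8 (Klre1, Klri2 and Ncr1). None was higher. Over all genes, 10.7% were lower and 3.67% higher in Cd8b1 cells. These shares were 16.4% and 4.93% in Cd3e-only cells and 16.2% and 4.53% in Trdc cells. The class I ligand genes H2-K1, H2-D1 and B2m were within 1.5-fold in all of these groups.

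Cd4 cells were the group nearest to the background. Under lenvatinib 13.7% (11.0 to 16.9) of 561 cells had a Ly49 UMI, beside 12.8% in neutrophils, and under the combination 4.62% (2.98 to 6.79) of 520, against 2.31%. By level, 3 of 7 members (Klra1, Klra3 and Klra9) lay above the background under lenvatinib and 4 of 7 (these and Klra7) under the combination.

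Ly49-positive cells were compared with Ly49-negative cells of the same group and library by their other genes. Positive cells had at least 1 member UMI before thinning, and numbered 2334 and 872 in NK cells and 1124 and 411 in Cd8b1 cells. Their median depths were 7299 and 6857 UMIs in NK cells, against 5685 and 8580.0 in negative cells. They were deeper than negative cells in all comparisons other than that of combination NK cells. Members were left out, since they made the split. A UMI before thinning was also found in 17.4% to 21% of the background groups under lenvatinib and 5.91% to 6.47% under the combination, against 36.3% and 17.0% of Cd8b1 cells, so positive T cells can include cells with free RNA alone. A gene is called higher or lower where the intervals of positive and negative cells did not overlap.

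Most genes of the conventional NK list were higher in Ly49-positive NK cells of both libraries. Of all genes with a mean of at least 10 CPM, 6.19% and 11.3% were higher in positive NK cells and 14.2% and 12.6% lower. Eomes, a transcription factor of conventional NK cells, was at 296 CPM in positive and 78.8 CPM in negative lenvatinib cells. In combination cells it was at 190.3 and 26.5 CPM. Of the 8 genes of that list 5 were higher in both libraries. Zeb2 overlapped in both, and Itgam was lower under the combination alone (71.5 and 107 CPM). Cma1 was lower under lenvatinib (11.4 and 83.7 CPM) and higher under the combination (20.6 and 1.53 CPM). Of 9 genes typical of tissue-resident NK cells and ILC1, 8 were lower in both libraries, among them Cxcr6, a liver-homing receptor (13.6 and 99.0 CPM, then 13.0 and 69.6 CPM), and the 9th, Tcf7, was higher. The median positive to negative ratio of that list was 0.216 and 0.249, against 0.965 and 1.01 over all genes. Klrc1 (NKG2A), another inhibitory receptor for class I, was lower in positive cells, at 239 and 417 CPM under lenvatinib and 210.2 and 347 CPM under the combination.

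By size of the smaller ratio of both libraries, Khdc1a led among 4998 genes in NK cells, at 88.5 and 11.3 CPM and then 99.5 and 5.61 CPM. Eomes, Serpinb9b, Eya1 and Gzma, which encodes granzyme A, followed. Gzma was at 4166 and 1419.9 CPM under lenvatinib and 3729 and 548 CPM under the combination.

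Other NK receptors were higher in Ly49-positive cells of several groups. In NK cells 6 of the 10 were higher in both libraries. In Cd8b1 cells, where 5.44% and 7.23% of all genes were higher and 8.65% and 7.96% lower, 8 of 10 other NK receptor genes were higher in positive cells of both libraries, with Klrb1c (NK1.1) at 56.8 and 14.9 CPM and then 66.0 and 12.7 CPM leading 4882 genes. Ikzf2, the Helios gene tied to regulatory CD8 T cells, was at 202 and 99.7 CPM and then 186 and 46.7 CPM. Of the 9 genes of the regulatory and virtual memory CD8 list, 4 were higher in both libraries and 2 lower (Il7r and Cxcr3). All 5 exhaustion genes had values below those of negative cells and 3 were lower in both libraries, with Pdcd1 (PD-1) at 17.5 and 31.9 CPM and then 26.2 and 60.5 CPM. Of 6 cytotoxic genes 4 were lower, including Gzmk (53.0 and 118, then 104 and 193 CPM) and Ccl5, while Gzma was higher. The NK gene Ncr1 was also higher in positive Cd8b1 cells, at 35.7 and 10.7 CPM and then 24.0 and 3.38 CPM. Ighg2b, an immunoglobulin gene of B lineage cells, was among the 10 leading genes, at 611 and 24.9 CPM and then 39.0 and 17.3 CPM. Doublets were not removed, and their part in this was not tested.

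Ly49-positive Trdc cells carried more transcripts of cytotoxic genes. Gzma was at 2064 CPM in positive and 91.3 CPM in negative cells under lenvatinib, and at 2170.2 and 57.2 CPM under the combination. All 5 cytotoxic genes measured in both libraries were higher in positive cells, where 5.51% and 4.46% of all genes were higher and 8.23% and 7.52% lower. Of the 9 genes of the tissue-resident NK and ILC1 list 6 were lower in both libraries (Cxcr6, Tcf7, Rora, Il7r, Tmem176a and Tmem176b) and 2 higher (Itga1 and Cd200r1), with Rora at 129 and 524 CPM and then 141 and 488 CPM. Among 4825 genes Gzma, Car2 and Klrb1a led. Of the 10 other NK receptors 8 were higher in positive Trdc cells of both libraries. The NK gene Ncr1 was at 211 and 23.2 CPM and then 172 and 15.8 CPM. Trdc itself was lower in positive cells, at 426 and 1154 CPM and then 550.4 and 1151 CPM. How many positive Trdc cells were NK cells was not tested.

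In Cd3e-only cells 9.62% and 14.5% of all genes were higher in positive cells and 17.4% and 17.3% lower. Klra5, a further member of the gene cluster, led 4969 genes at 37.4 and 6.14 CPM and then 48.1 and 1.18 CPM, followed by Klre1 and Klrb1c. Xcl1, a chemokine for cross-presenting dendritic cells, was at 1185 and 359.5 CPM and then 1109 and 299 CPM. In both libraries 8 of the 10 other NK receptors, 5 of 6 cytotoxic genes and 5 of 9 genes of the regulatory and virtual memory CD8 list were higher, and 2 of that list (Cd44 and Il7r) were lower. Of the 8 conventional NK genes 4 were higher in both and 2 lower (Zeb2 and Itgam). Itgam was at 25.5 and 43.4 CPM and then 27.3 and 151 CPM. Of the 8 adaptor and signaling genes 1 was higher in both and 2 lower, among them Syk (28.0 and 70.5, then 23.6 and 86.2 CPM). The part of other cell types in the negative cells was not tested. Ikzf2 was 668 and 633 CPM under lenvatinib and 375 and 116 CPM under the combination, with intervals that overlapped in the former library and lay apart in the latter; the difference between libraries was not tested.

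Across 10 cell groups in each library, the genes whose level was most like the summed members were Klrb1c (Pearson r of log2(CPM + 1) 0.976 over 20 points, among 8927 genes), Spry2 (0.975), Klre1 (0.973), Klri2 (0.965) and Ugcg (0.962). Among the members, Klra8 was most like Klra4 (0.975), Klra3 most like Klra7 (0.978) and Klra6 most like Klra1 (0.930), whereas Klra9 was most like Klrb1c (0.980) and Xcl1 (0.979). The points share libraries and free RNA, so these values are a description.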

How the data were processed

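Single-cell transcriptomes of sorted CD45-positive cells were measured with 10x Genomics 3′ chemistry in 2 libraries. The authors made the deposited values, raw UMI counts per gene and barcode on mm10, with Cell Ranger (5.0.1 per the submitters' processing notes, 6.0.1 per the file headers). Cells with at most 6000 genes and at most 25% mitochondrial UMIs were kept. Counts were summed per cell group and library and given as CPM with exact Poisson intervals, or cells were thinned once to 2000 UMIs and shares given with exact Clopper-Pearson intervals (scipy 1.17.1). A limit for a count of 0 was set at 3 counts. No test was made with 1 library a condition, no doublet caller was run, and the summing and thinning were tested on simulated data.

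The 7 members were all named. Other genes came from lists of receptors, adaptors, ligands and cell states, from the 10 largest positive to negative ratios (at least 20 CPM and 20 counts), and from the 5 closest patterns (3 for each member). Members and lists were chosen with earlier results of these data known. Comparisons in Cd3e-only cells of positive with negative cells and of all genes, the subtraction of B cell or highest background levels and the mean over all draws were added after seeing the data. Trgc1 and Trgc2 were not matched by symbol.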

Additional observations from a re-analysis of the deposited data

Results flagged for a closer look

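Other genes of the cluster, outside the 7 members, had UMIs above the limit that a count of 0 allows. Klra2 was highest in mononuclear myeloid cells, at 66.4 CPM in the lenvatinib library and 96.4 CPM in the combination library. Klra17 was highest in neutrophils, at 36.4 and 48.4 CPM. Klra5 was highest in Trdc cells, at 33.0 and 31.8 CPM. Klra10 was highest in NK cells, at 2.71 and 1.33 CPM.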

How the results depend on the processing

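Over 80 results and 676 alternative values, 4 changed a called direction, all 4 with the highest background group of each library subtracted. A further 108 moved past their set range without such a change. Where subtraction left no positive level in a library, no ratio could be formed and the case is not counted. With the highest background group subtracted this held for Klra4 and Klra8 in Cd8b1 cells and in Cd4 cells. The log2 ratio between the libraries turned to 0.21 for the 7 genes in Cd8b1 cells, 0.11 for Klra6 in NK cells, 0.39 for Klra7 in Cd4 cells and 0.54 for Klra8 in Cd3e-only cells. Between the libraries, the log2 ratio of the 7 genes in NK cells was −0.67, and moved beyond counting error to −0.55 without cells that held a Cd79a, Csf1r or Csf3r UMI, −0.62 without the 2% deepest cells, −0.57 with Cd3d and Cd3g at 0, −0.61 with at least 2 Ncr1 UMIs, −0.75 with Klrb1c in place of Ncr1 and −0.57 with the highest background group subtracted. In Cd8b1 cells it was −1.15, −1.27 without cells of other lineage genes and −0.98 after B cell subtraction. The difference of the Cd8b1 share, −8.60 percentage points, was −5.76 at 1000 UMIs, −15.1 at 4000 UMIs and −19.3 without thinning; that of NK cells with at least 2 members, −11.3, was −6.05 at 1000 UMIs. Genes lower in NK cells were 1.11% at a fold of 2, against 11.3% at 1.5. A second draw of the thinning gave −14.2 percentage points for the NK share, against −15.2. Without a called direction, Klra9 in Cd8b1 and Cd3e-only cells, Klra1 in Trdc cells and Klra6 in Cd4 cells had ratios on both sides of 1. No paired analysis was possible because each condition was 1 library. Depth limits statements on Klra6 in NK cells and on all members in Cd4 cells.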

Other observations

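Itga1 and Itga2 together were found in 202 lenvatinib and 29 combination NK cells (7.09% and 2.29% of NK cells). In these cells Klra7 was at 402 CPM (375 to 429.8) and 78.6 CPM (50.9 to 116), and Klra9 at 207 and 192 CPM with overlapping intervals.

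The Klra5 level, read in the same way as the members, was 26.9 and 22.9 CPM in Cd3e-only cells and 22.3 and 14.7 CPM in NK cells, so in the combination library it was higher in Cd3e-only cells than in NK cells, as Klra6 was in both. Its ratio between the libraries in Cd3e-only cells was 0.851 (0.683 to 1.06).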
